A study of Mus musculus with 4 samples.

Results

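Nudt21, Pcf11, Cpsf2, Cstf1, Cstf3, Wdr82 and Scaf8 encode proteins that cut and polyadenylate transcripts, end transcription or bind RNA polymerase II (Pol II) while it elongates. They were taken by symbol (NUDT21, PCF11, CPSF2, CSTF1, CSTF3, WDR82 and SCAF8 in the tables) from the deposited gene tables, and all 7 were found among the 3025 genes listed both at transcription start sites (TSS) and at transcription end sites (TES), of 3117 genes in either table. They stood at the upper and lower ends of a longer list of such genes in an earlier analysis of the same values, so the spread between them was fixed in part by how they were chosen. The data come from native elongating transcript sequencing (mNET-seq), which sequences the short RNA protected inside immunoprecipitated Pol II after micrococcal nuclease digestion. The cells were B16F10, an established mouse melanoma line, either control (labelled WT) or lacking Carm1, an arginine methyltransferase (Carm1 KO, also called knockout cells here). The labels name neither how the knockout was made nor whether the line is 1 clone. For each kind of cell 1 library used an antibody against the carboxy-terminal domain (CTD) of Pol II phosphorylated at serine 2 (Ser2P), and 1 used antibody 8WG16 against the CTD, titled Pol II. Cells of 3 sets per condition were pooled before the immunoprecipitation, so every value stands for 1 library per group, with no spread between replicates and no test. The values are Ser2P ratios: Ser2P signal divided by a signal that the file headers do not name. A change of a ratio can therefore lie in either signal. Carm1 was not analysed here, so the knockout was not checked from its own gene. Of 7 melanocyte lineage markers, 5 were listed at the TSS (Sox10, Tyr, Tyrp1, Pmel and Mlana) and 3 at the TES, while Mitf and Dct were among the genes of neither table used here.

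As Pol II moves along a gene, kinases place phosphates on serine 2 of its CTD, and the mark accumulates toward the end of the gene. Several 3' end factors bind this form of the CTD. When the polyadenylation signal has been transcribed, the cleavage and polyadenylation specificity factor (CPSF) recognises it, the cleavage stimulation factor (CstF) binds the RNA downstream, cleavage factors I and II join, the transcript is cut and tailed, and Pol II is released. Of the 7 genes, Pcf11 and Scaf8 encode proteins with the domain named CTD-interacting domain. The values concern Pol II on the 7 genes, not the proteins they encode.

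Because CPSF acts on a short signal near the cleavage site, the last 30 bases of the longest protein-coding transcript of each gene are shown (GENCODE M21 on GRCm38, 5′ to 3′ in transcript sense), with the polyadenylation hexamer in capitals, AATAAA or the variant ATTAAA, searched on the transcript strand only.
Cpsf2, chr12:102006395-102006424, plus strand: tatttcgctAATAAATAAAagatgctgagc
Cstf1, chr2:172382419-172382448, plus strand: tctaaAATAAAttttttttatataacagtg
Cstf3, chr2:104665400-104665429, plus strand: aaaggAATAAAaggacctcaaaaacatgcc
Nudt21, chr8:94015496-94015525, minus strand: gttatttcAATAAAaatatttaaaactgaa
Pcf11, chr7:92643543-92643572, minus strand: ATTAAAacttgtgattttttttccgtggga
Scaf8, chr17:3198830-3198859, plus strand: agatgccAATAAAacttacttgtttgataa
Wdr82, chr9:106191110-106191139, plus strand: gtcgtaaacaggattttatggtttacagtc
The canonical AATAAA stood in 5 of the 7 ends, with its first base between 17 and 25 bases from the end, counting the last base as 1. Cpsf2 had 2 overlapping copies, which start 21 and 17 bases from the end. Pcf11 had the variant ATTAAA, starting 30 bases from the end, and Wdr82 had neither hexamer in its last 30 bases. Among the longest coding transcripts of 2870 genes of the tables, 53.9% had AATAAA in the last 30 bases, 14.0% only ATTAAA and 32.1% neither. TGTA, the DNA form of the motif that the product of Nudt21 binds, occurred in the last 100 bases of 3 of the 7 (Nudt21, Cstf3 and Wdr82), against 56.1% of these genes. A match describes these letters only and does not show a site in use.

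In control cells the 7 genes had low Ser2P ratios at the TSS and higher ones at the TES, as did most genes. Their TSS ratios ran from 0.0274 at Nudt21 to 0.173 at Cstf1, around the median of all listed genes, 0.0809. Their TES ratios ran from 1.33 at Cstf1 to 5.79 at Cstf3, and 6 of the 7 lay above the median of all listed genes, 1.71. In ascending order the control TSS ratios were those of Nudt21, Pcf11, Wdr82, Cstf3, Scaf8, Cpsf2 and Cstf1. With 1 library per group it cannot be said which neighbours in this order differ beyond their spread. The plot of the ratios by condition shows each gene at each end.

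**Figure D1:**
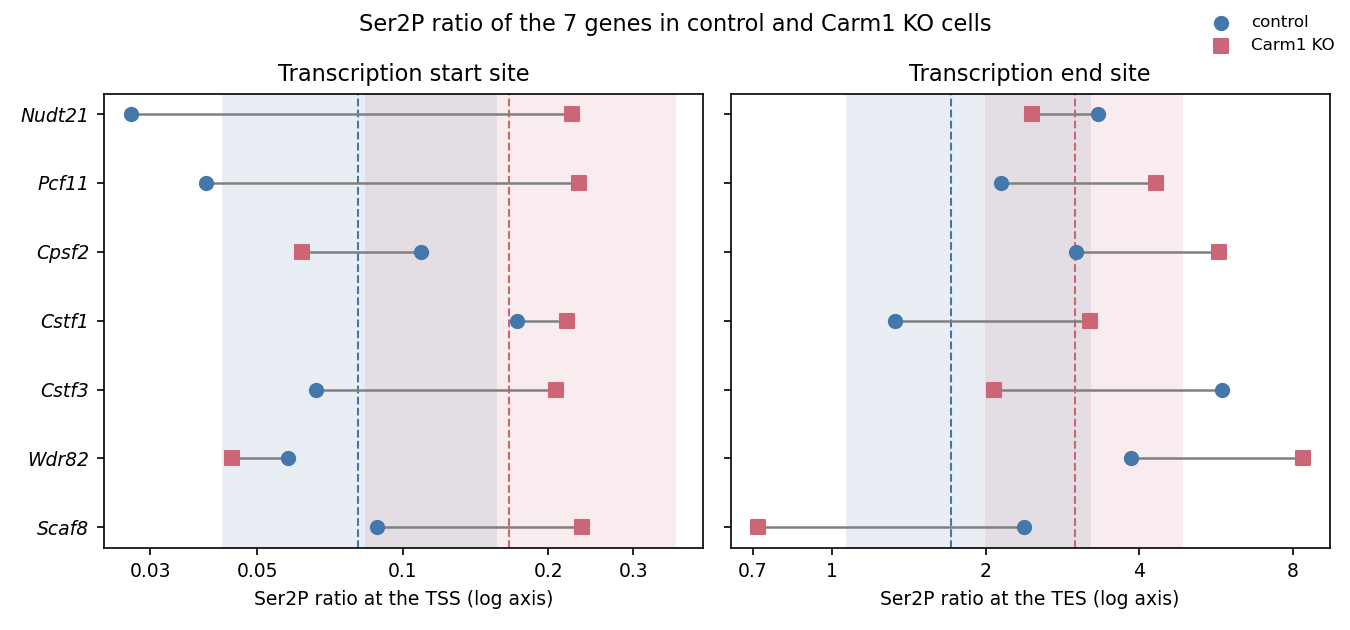
Ser2P ratio (log axes) of each gene at the TSS (left) and TES (right) in control (circles) and knockout cells (squares), 1 library each. Dashed lines are medians and shaded bands the quartiles of all listed genes, blue for control and red for Carm1 KO. At the TSS the 5 genes other than Cpsf2 and Wdr82 had Carm1 KO ratios between 0.208 and 0.235.

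At the TSS, 4 of the 7 genes were at least 1.5-fold higher in knockout cells (Nudt21, Pcf11, Cstf3 and Scaf8) and 1 was at least 1.5-fold lower (Cpsf2). By that factor 71.2% of the 2859 compared genes were higher and 5.60% lower, and the median log2 change was 1.17. The 4 higher genes therefore match the common direction, whereas a lower TSS ratio was uncommon. At the TES, 4 were higher (Pcf11, Cpsf2, Cstf1 and Wdr82) and 2 lower (Cstf3 and Scaf8), where 66.7% of 3016 compared genes were higher and 7.13% lower, with a median log2 change of 0.85. Relative to the all-gene median, 2 of the 7 were higher (Nudt21 and Pcf11) and 3 lower (Cpsf2, Cstf1 and Wdr82) at the TSS, beside 28.6% and 28.8% of compared genes, and 0 were higher and 3 lower (Nudt21, Cstf3 and Scaf8) at the TES, beside 11.6% and 22.0%. Scaling between the libraries is not stated, so the place of each gene among all listed genes of the same column, which does not depend on a common factor, is given beside its ratio. It is called its rank percentile, the percentage of listed genes with a lower ratio.

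Cpsf2 encodes the scaffold partner of the endonuclease within CPSF. Control cells had a TSS ratio of 0.109 and knockout cells one of 0.0619, a log2 change of -0.82, and its rank percentile went from 63.1 to 18.3. Its TES ratio was 3.01 in control and 5.74 in knockout cells, a log2 change of 0.93 that is within 0.08 of the median of all genes. Its TES rank percentile was 72.5 in control and 81.6 in knockout cells, so it was low among listed genes at its start and high at its end in the knockout. Only 3.42% of 2775 genes compared at both ends were at least 1.5-fold lower at the TSS and higher at the TES. In the annotation the opposite-strand transcript Ndufb1-ps, classed as a bidirectional promoter RNA, covers the Cpsf2 start site, and the strand setting of the counting is not given. The part of that transcript in the TSS ratio was not tested. The TSS ratio of Cpsf2 in knockout cells was shared exactly with 3 other genes, so it is a coarse value.

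The CstF genes Cstf1 and Cstf3 differed from each other at both ends. Cstf1 encodes the WD-repeat subunit of CstF. Its TSS ratio was 0.173 in control and 0.218 in knockout cells, a log2 change of 0.34 that stayed under 1.5-fold and was -0.83 relative to the all-gene median. Its TES ratio was 1.33 in control and 3.21 in knockout cells, a log2 change of 1.27 and the largest TES increase of the 7. Cstf3 encodes the subunit that holds CstF together as a dimer. At the start of Cstf3 the ratio was 0.0662 in control and 0.208 in knockout cells, a log2 change of 1.65. At the TES its ratio was 5.79 in control, the highest of the 7, and 2.07 in knockout cells, a log2 change of -1.48. Its TES rank percentile dropped from 92.1 to 27.1, while that of Cstf1 moved from 37.3 to 53.6. At the TSS the rank percentile of Cstf3 went from 41.0 to 59.4 and that of Cstf1 from 77.2 to 61.3. The end of Cstf3 lies within Tcp11l1, which is annotated on the opposite strand and was among the genes of neither table. The divergent gene Aurka, a mitotic kinase gene, starts 146 bp from the annotated start of Cstf1 and had a log2 change of -0.07 at the TSS and 1.15 at the TES. Neither neighbour's part in these ratios was tested.

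Nudt21 encodes the RNA-binding subunit of cleavage factor I, which recognises UGUA upstream of cleavage sites and influences which site is used. Its TSS ratio was 0.0274 in control, the lowest of the 7, and 0.224 in knockout cells. This is 8.17-fold higher, a log2 change of 3.03 that exceeded the change of 93.9% of compared genes. Its TSS rank percentile went from 15.1 to 61.9. The Carm1 KO value was shared exactly with 17 other genes, the most of any value among the 7, so the size of this change is coarse. At the TES its ratio was 3.32 in control and 2.46 in knockout cells, a log2 change of -0.43 that did not reach 1.5-fold but was -1.28 relative to the all-gene median. Nudt21 thus moved from a low to a middle position at its start and from rank percentile 76.1 to 37.8 at its end. Ogfod1, an oxygenase gene, starts 167 bp away on the opposite strand and had a log2 change of 0.29 at the TSS. The part of Ogfod1 in the TSS ratio of Nudt21 was not tested.

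Pcf11 encodes a subunit of cleavage factor II with a CTD-interacting domain that binds Ser2P. The start of Pcf11 had a ratio of 0.0391 in control and 0.231 in knockout cells, 5.91-fold higher, a log2 change of 2.56. Its TES ratio was 2.14 in control and 4.31 in knockout cells, a log2 change of 1.01. Pcf11 was the only one of the 7 that was at least 1.5-fold higher at both ends, which 49.2% of genes were. Its TES rank percentile, 59.7 in control and 69.4 in knockout cells, changed less than its TSS rank percentile, 23.1 and 63.4. The knockout TSS ratio of Pcf11 was shared exactly with 2 other genes. Gm26944 and 6430511E19Rik cover its end on the opposite strand in the annotation, and their part in the TES ratio was not tested.

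Scaf8 also encodes a protein with a CTD-interacting domain, known to act with Scaf4 against premature use of polyadenylation sites. Scaf8 had a start-site ratio of 0.0884 in control and 0.235 in knockout cells, a log2 change of 1.41, which lies 0.24 above the all-gene median. Its TES ratio was 2.37 in control and 0.716 in knockout cells, 3.31-fold lower, a log2 change of -1.73 and the largest TES decrease of the 7. Only 1.09% of compared genes had a lower TES change. Its TES rank percentile went from 63.6 to 4.09, whereas at the TSS it went from 54.4 to 63.8. The knockout TSS ratio of Scaf8 was shared exactly with 4 other genes, so it is a coarse value. The lincRNA gene Gm49797 starts on the same strand 749 bp before the annotated end of Scaf8 and runs on beyond it. The pseudogene Gm21926 starts 177 bp from the annotated start of Scaf8 on the opposite strand. The part of either neighbour in these ratios was not tested. Scaf8 and Cstf3 shared the pattern of a higher TSS and a lower TES ratio, at least 1.5-fold each, which 4.58% of the genes compared at both ends had.

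Wdr82 encodes a WD-repeat protein of the SETD1 histone methyltransferase complexes, of the PNUTS-PP1 phosphatase complex and of the complex with Zc3h4 that stops unproductive transcription. Its TSS ratio was 0.0577 in control and 0.0444 in knockout cells, a log2 change of -0.38 that did not reach 1.5-fold and was -1.55 relative to the all-gene median. Its TES ratio was 3.85 in control and 8.35 in knockout cells, a log2 change of 1.12. In knockout cells Wdr82 had the lowest TSS ratio and the highest TES ratio of the 7, at rank percentiles 13.1 and 93.2. Its rank percentiles in control cells were 35.5 at the TSS and 80.9 at the TES. The knockout TSS ratio of Wdr82 was shared exactly with 1 other gene, so it is a coarse value. Wdr82 hosts the microRNA gene Mirlet7g within its span, 7912 bp from its start.

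**Figure D2:**
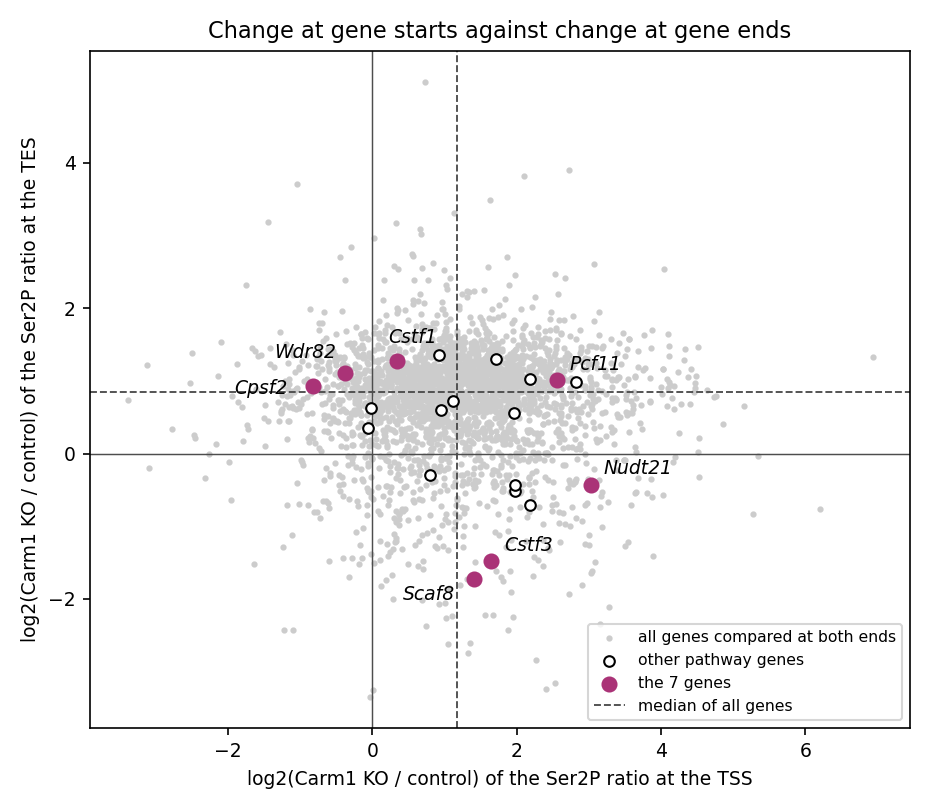
Log2 change of the Ser2P ratio (Carm1 KO over control) at the TSS (x axis) and TES (y axis). Grey points are the 2775 genes compared at both ends, open circles the other pathway genes and filled circles the 7 genes, with dashed lines at the medians of all genes. Cpsf2, Wdr82 and Cstf1 lie left of the TSS median, with TES changes of 0.93, 1.12 and 1.27, and Cstf3 and Scaf8 lie at TES changes of -1.48 and -1.73.

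Dividing the TES ratio of a gene by its TSS ratio gives the start-to-end step, in which a scale factor common to both tables of 1 condition cancels. Over 2775 genes the median step was 19.5-fold in control and 15.7-fold in knockout cells. The step was at least 1.5-fold smaller in knockout cells for 4 of the 7 genes (Nudt21, Cstf3, Scaf8 and Pcf11) and at least 1.5-fold larger for 3 (Cpsf2, Wdr82 and Cstf1), where 44.2% of all genes had a smaller and 19.8% a larger step. For Nudt21 it went from 121-fold to 11.0-fold, the largest loss of the 7. For Cstf3 it went from 87.6-fold to 9.98-fold. For Scaf8 it went from 26.8-fold to 3.05-fold, so that in knockout cells the start and end of Scaf8 were closest of the 7. Pcf11 kept a step of 18.6-fold after 54.8-fold in control cells. In the other direction, Wdr82 went from 66.8-fold to 188-fold, Cpsf2 from 27.6-fold to 92.7-fold and Cstf1 from 7.69-fold to 14.7-fold. No gene of the 7 lay within 1.5-fold of its control step, and their changes ran from -3.46 to 1.75 on the log2 scale. The members stood at the ends of the TSS and TES changes when they were chosen, so this spread is a description.

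**Figure D3:**
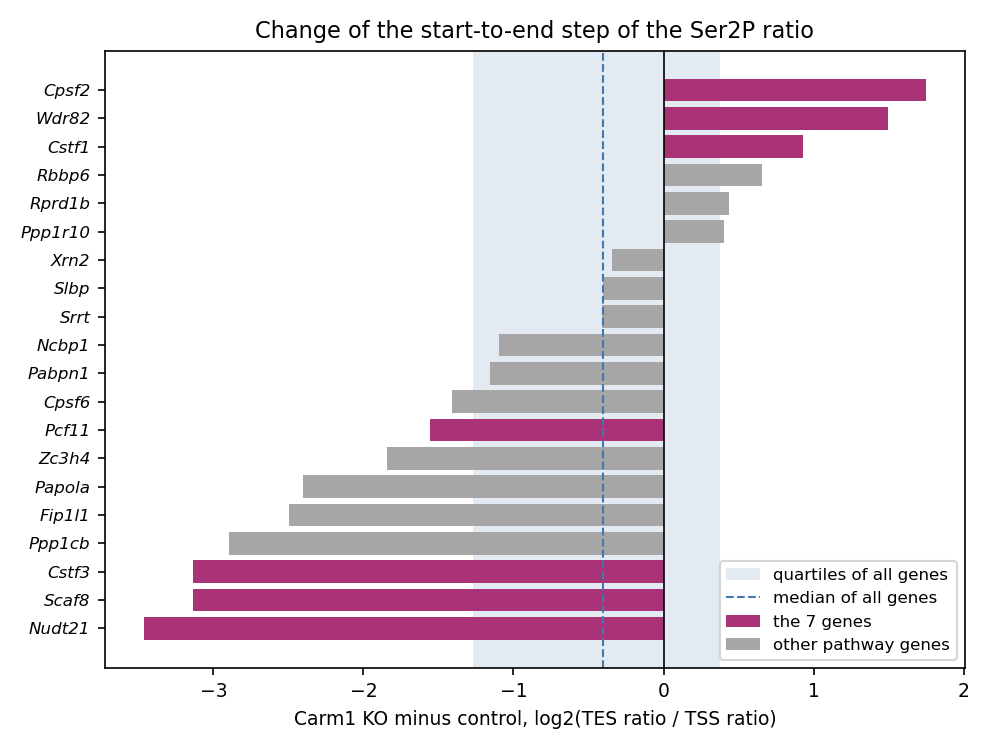
Carm1 KO minus control of log2(TES ratio / TSS ratio) for the 20 pathway genes above 0 in all 4 values (x axis, log2 units), with the 7 genes in purple and the others in grey. The dashed line is the median of all genes (-0.40) and the band their quartiles. Nudt21, Scaf8 and Cstf3 have the lowest values, near or below -3.13, and Cpsf2 and Wdr82 the highest, 1.75 and 1.49.

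Gene length differed between the genes and is given because TES changes varied with it. Cstf1 spans 11768 bp, Wdr82 20212 bp, Nudt21 21536 bp, Pcf11 26392 bp, Cpsf2 30437 bp, Cstf3 74907 bp and Scaf8 83888 bp. Both genes that were lower at the TES were the longest of the 7. With compared genes split by length into 10 equally large groups, the median TES change was 0.22 in the group of Cstf3 and -0.09 in that of Scaf8, against 1.01 in the group of Wdr82 and Nudt21. Relative to the median of its own length group, Cstf3 was at -1.71 and Scaf8 at -1.64 on the log2 scale. Nudt21, of middle length, was at -1.44 relative to its group, and Pcf11, Cpsf2, Cstf1 and Wdr82 lay between 0.09 and 0.23 above theirs. At the TSS the group medians of these genes were between 1.13 and 1.28, and the members' order of change there did not follow their length.

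**Figure D4:**
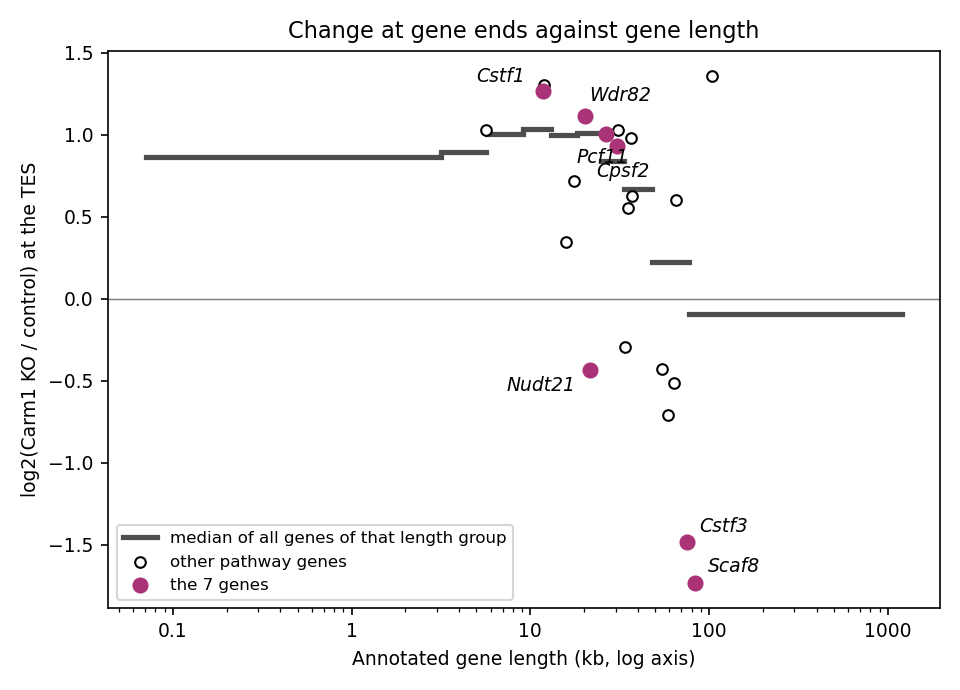
Log2 change of the Ser2P ratio at the TES (y axis) against annotated gene length in kb (x axis, log scale). Horizontal bars are medians of all genes in 10 length groups, open circles the other pathway genes and filled circles the 7 genes. Cstf3 and Scaf8, at 74907 and 83888 bp, lie below the bars of their groups, as does Nudt21.

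The wider pathway was read from a list of 45 genes, of which 21 were in both tables, the 7 among them. Of the 14 others, 13 were compared at the TSS, where 11 were at least 1.5-fold higher and 0 lower, beside 71.2% and 5.60% of all compared genes, and the median log2 change was 1.72 against 1.17 for all genes. Without a replicate no test stands behind these counts. At the TES 8 of 14 were higher and 1 lower, beside 66.7% and 7.13% of all genes, with a median of 0.62 against 0.85. The start-to-end step was smaller in 7 of 13 and larger in 1, beside 44.2% and 19.8%. The 7 stood at the ends of a longer list when chosen, so the counts without them were fixed in part by that choice. With the 7 included, 15 of 20 genes were higher and 1 lower at the TSS, and 12 of 21 higher and 3 lower at the TES. The step was then smaller in 11 of 20 and larger in 4.

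Among further CPSF genes, Fip1l1, which links CPSF to poly(A) polymerase, had TSS ratios of 0.0363 in control and 0.144 in knockout cells and TES ratios of 4.69 and 3.29. It therefore shared the direction of Nudt21 at both ends and not that of Cpsf2. Rbbp6, another cleavage factor gene, had a log2 change of -0.02 at the TSS and 0.63 at the TES. Cpsf6, the partner of Nudt21 in cleavage factor I, had TSS ratios of 0.0557 and 0.218 and TES ratios of 4.96 and 7.27. Both cleavage factor I genes thus had a higher TSS ratio, and their TES changes, -0.43 and 0.55, had opposite signs and stayed under 1.5-fold. The canonical poly(A) polymerase gene Papola had TSS ratios of 0.0375 and 0.147 and TES ratios of 6.89 and 5.11. Pabpn1, the nuclear poly(A)-binding protein gene, had a TSS change of 2.18 and a TES change of 1.03.

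Among termination and CTD-binding genes, Xrn2, the exonuclease of torpedo termination, changed by 0.95 at the TSS and 0.60 at the TES, and its TES ratio reached 11.0 in knockout cells. Rprd1b, which encodes a CTD-binding scaffold for phosphatases, changed by 0.92 and 1.36. Ttf2, a termination ATPase gene, had 0.0302 as its TSS ratio in control cells and was listed at 0 in knockout cells, so no fold was computed there, and changed by 1.03 at the TES. Of the partners of Wdr82, which had a TSS change of -0.38, Zc3h4 changed by 2.83 at the TSS and 0.98 at the TES, and Ppp1r10, which encodes PNUTS, by -0.06 and 0.35. Ppp1cb, a catalytic subunit gene of PP1, changed by 2.19 at the TSS and -0.71 at the TES, a call in each direction like that of Cstf3 and Scaf8. Of the other SETD1 complex genes Setd1a changed by 1.82 and 1.90 and Hcfc1 by 0.66 and 1.37. Slbp, of histone mRNA processing, changed by 1.12 and 0.72, Srrt by 1.72 and 1.31 and the cap-binding gene Ncbp1 by 0.80 and -0.29.

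In all, 3 of the 20 pathway genes compared at both ends were at least 1.5-fold higher at the TSS and lower at the TES (Cstf3, Scaf8 and Ppp1cb), 1 had the opposite pair of calls (Cpsf2) and 7 were higher at both. Over all genes compared at both ends these shares were 4.58%, 3.42% and 49.2%. Of the genes with opposite calls at the 2 ends, only Ppp1cb is not among the 7. The 7 stood at the ends of a longer list when chosen, so these counts were fixed in part by that choice. The pathway genes with a negative TES change were mostly long. In the 2 longest of the 10 length groups, from 47799 bp, 5 of 7 pathway genes had one, where 47.5% of all 596 genes did. In the shorter groups 2 of 14 had one, Nudt21 and Ncbp1, against 7.77% of all genes. Xrn2 and Rprd1b, the other long genes, had positive TES changes. Cstf3, Scaf8 and Nudt21, counted here with a negative TES change, are among the 7, so the same limit holds.

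The kinases and phosphatases of serine 2 were represented by 4 listed genes of 11 written down, with earlier results of these data known. Cdk12, a Ser2 kinase gene, had a TSS change of 1.29 and a TES change of -0.54. The cyclin T genes Ccnt1 and Ccnt2, whose products activate the kinase Cdk9, changed by 0.47 and 0.31 at the TSS and by -0.45 and -1.22 at the TES. The CTD phosphatase gene Ctdp1 changed by 0.01 and -0.62. All 4 had a negative TES change, where 15.7% of compared genes did, and 2 were at least 1.5-fold lower, where 7.13% of genes were. In the 2 longest length groups, which hold Cdk12 and Ctdp1, 47.5% of genes had a negative TES change. In the shorter groups, which hold Ccnt1 and Ccnt2, 7.77% had one. Relative to the medians of their length groups, the TES change was -1.29 for Ccnt1, -1.89 for Ccnt2, -0.76 for Cdk12 and -0.85 for Ctdp1.

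The 150 bases before the RefSeq start (GRCm38.p6) are shown for 4 genes. Nudt21 and Pcf11 had the largest TSS increases, and Cpsf2 and Wdr82 had negative TSS changes. The windows of the TSS ratios are not stated, so the ratios need not cover these bases. Capitals mark CCAAT on either strand (ATTGG when read on the printed strand).
Nudt21, chr8:94037040-94037189, minus strand: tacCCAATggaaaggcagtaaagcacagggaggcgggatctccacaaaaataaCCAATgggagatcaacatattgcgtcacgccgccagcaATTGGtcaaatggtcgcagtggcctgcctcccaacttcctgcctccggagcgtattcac
Pcf11, chr7:92669913-92670062, minus strand: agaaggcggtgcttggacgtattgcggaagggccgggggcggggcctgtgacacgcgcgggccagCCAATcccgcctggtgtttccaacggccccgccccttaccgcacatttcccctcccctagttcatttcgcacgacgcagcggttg
Cpsf2, chr12:101975824-101975973, plus strand: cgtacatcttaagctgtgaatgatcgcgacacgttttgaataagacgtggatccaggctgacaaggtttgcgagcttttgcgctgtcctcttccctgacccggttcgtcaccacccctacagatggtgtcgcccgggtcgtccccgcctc
Wdr82, chr9:106170779-106170928, plus strand: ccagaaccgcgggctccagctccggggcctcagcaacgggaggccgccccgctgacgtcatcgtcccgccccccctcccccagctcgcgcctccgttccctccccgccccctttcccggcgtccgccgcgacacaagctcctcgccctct
CCAAT occurred 3 times before Nudt21 and 1 time before Pcf11, and not before Cpsf2 or Wdr82. Of the remaining genes Cstf3 had it and Cstf1 and Scaf8 did not, so 3 of the 7 promoters held the motif, against 30.9% of 3042 promoters of listed genes. GGGCGG, searched on both strands, was before Pcf11, Cstf3 and Wdr82, and in 54.5% of promoters of listed genes. TGACGTCA was before Wdr82 and in 4.04% of those promoters, and TATAAA was before none of the 7 and in 3.35%. CCGGAA was before Cstf3 and in 24.2% of promoters of listed genes, and AAGATGG was before Cstf1 and in 3.22%. These are all the motifs searched. The printed promoters were picked by their TSS change, and no link between a motif and a change was tested. Motifs were counted one by one, whether or not they overlapped. GC content of the windows ran from 53.3% at Nudt21 to 76.0% at Wdr82 and Scaf8, around a median of 63.3% for listed genes. For Cstf1 the RefSeq start lies 322 bp from the GENCODE start, and for the other 6 genes the distance was at most 39 bp. These matches are descriptions of the letters in these windows.

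Likeness between genes was measured as the distance over the 4 log2 ratios (control and Carm1 KO, TSS and TES), so that a distance of 1 equals a 2-fold difference in 1 ratio. The 4 values of a gene come from the same libraries, so likeness over them is a description. Among the 7, the closest pair was Nudt21 and Pcf11 (distance 1.15), followed by Cpsf2 and Wdr82 (1.22), and the most distant was Wdr82 and Scaf8 (4.38). Among 2591 candidate genes, the nearest to Nudt21 were Cse1l (0.33) and Ythdf3 (0.57), to Pcf11 Rlim (0.30) and Ntmt1 (0.32), and to Cpsf2 Mrps31 (0.27) and Zfyve26 (0.47). Nearest to Cstf1 were Mdc1 (0.25) and Leng8 (0.29), and to Wdr82 Gin1 (0.26) and Atp1b3 (0.40). Cstf3 and Scaf8 had more distant neighbours, at 0.68 for Ppp1cb and Rock2 and at 0.66 and 0.70 for Shq1 and Zbtb21. Ppp1cb was the only one of these nearest genes on the pathway list, and Rock2, which is not on it, was about equally near to Cstf3.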

How the data were processed

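The data were 4 mNET-seq libraries of B16F10 cells, 1 per antibody (Ser2P or Pol II) and genotype (control or Carm1 KO). Per the submitters' processing notes, reads were handled with cutadapt 1.18 and TopHat2 2.1.1 on mm10 (GRCm38). The authors deposited a linear ratio per gene and condition at the TSS and TES, which the headers call a Ser2 fraction although it exceeds 1. The divisor, windows, scaling, strand setting and gene choice are not stated in the labels or headers, and depth is unknown. The deposited difference column, of another unit, equalled Carm1 KO minus control within 1e-09 and was not used further. The columns were assigned to groups by their names.

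Changes were log2(Carm1 KO / control) with no pseudocount, genes at 0 were not compared, and calls were made at 1.5-fold, which is 0.58 on the log2 scale. The calling step was run on simulated ratios with planted changes well above the threshold. That run checks the code and not the precision of the real ratios. Gene spans came from GENCODE M21 for 98.7% of the 3117 genes, promoters from RefSeq (GRCm38.p6, all 7 genes matched). Python 3.11.15, pandas 2.3.3 and numpy 2.4.6 were used. Named genes are the 7 members, the listed pathway, Ser2 kinase and phosphatase and Wdr82 partner genes, and for each member the 2 genes nearest in ratios, predicted and small RNA genes excepted. The members and lists were chosen with earlier results of these data known. Alternatives were a 2-fold threshold, a pseudocount (0.01 at the TSS, 0.1 at the TES), centring on all genes or on the length group, and leaving out low or shared ratios. No replicate, leave-one-out or batch analysis can be made with 1 library per group.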

Additional observations from a re-analysis of the deposited data

How the results depend on the processing

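No paired analysis was possible because each group has 1 library and the labels give no replicate numbers. Counts over the 7 genes and over the pathway list depended on whether the median of all genes was subtracted. With that subtraction the members higher at the TSS numbered 2 and lower 3, and the pathway genes 8 and 5. At the TES the members higher numbered 0 and lower 3, and the pathway genes 0 and 7. Subtracting the median of the length group gave the same 2 and 3 members and 8 and 5 pathway genes at the TSS, and 0 members and 1 pathway gene higher at the TES, with 3 members and 8 pathway genes lower. Nudt21 and Pcf11 stayed higher and Cpsf2 lower at the TSS, and Cstf3 and Scaf8 lower at the TES, under both forms of centring, while Cstf1 and Wdr82 were then lower at the TSS and Nudt21 lower at the TES. At a 2-fold threshold 0 members and 0 pathway genes were lower at the TSS, and 7 pathway genes were higher at the TES. With the pseudocount 2 pathway genes were lower at the TSS, since Ttf2, listed at 0 in Carm1 KO cells, then counted. Without genes whose mean ratio was under the lower quartile, Scaf8 was not compared at the TES, which left 1 member lower. Leaving out genes with an exactly shared ratio kept 1 of 7 members at the TSS, Cstf3, with 1 higher and 0 lower, and 5 pathway genes higher and 0 lower of 6. At the TES it left out Nudt21, Cstf3 and Scaf8, so 0 members and 1 pathway gene were lower. These counts shrink because fewer genes are compared. The TSS calls of Nudt21, Pcf11, Cpsf2 and Scaf8 all rest on knockout ratios that other genes share exactly. The number of members with a smaller start-to-end step was within 1.5 times of 4 under the 4 alternatives tried for it, which were chosen after seeing the data. Leaving out low or shared ratios was not tried for the step. Each of the 7 has an exactly shared ratio at 1 end at least, so none would remain without shared ratios. No member called at 1.5-fold changed sign under centring or the pseudocount. Coarse, shared values and unknown depth limit the precision of single genes, at the TSS above all.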
